A study of Homo sapiens with 17 samples.

Results

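The genes of the Golgi vesicle coats and of endosome-to-Golgi retrieval were followed through 17 RNA libraries of K562 cells. The set is a list of 49 genes out of 57638 counted, chosen by name and function with earlier results of these data known. It holds 8 of the COPI coat, 10 of the COPII coat, 4 ARF GTPases and 10 cargo receptors. The rest are 4 of the AP-1 adaptor, 5 of retromer and its sorting nexins, 4 of the GARP tether, and RAB6A with 3 SNAREs. K562 is a human chronic myeloid leukaemia line. Per the labels, the cells received CRISPR plasmids by electroporation that were meant to activate a named gene, then an antisense oligonucleotide, and RNA was taken on day 6. The labels give the plasmids and the oligonucleotide for every library, controls included, and the guide and oligonucleotide sequences are in none of the sources read. Each library was primed with oligo-dT and carries molecular identifiers of 12 bp, so reads come from transcript 3′ ends. The title of the series concerns GOLGA8 and the uptake and activity of antisense oligonucleotides, which gives the question asked here: whether RNAs of the Golgi coat and retrieval machinery differed in the cells labelled GOLGA8N.

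The GOLGA8N label stands on 3 libraries, titled 23-GOLGA8N, GOLGA8N 1 and GOLGA8N 2. They were set against the 14 other libraries: 3 labelled LAPTM4B (22-LAPTM4B, LAPTM4B 1 and LAPTM4B 2) and 1 each labelled 20-ARSF, 21-CTPS2, TTR, TRPC5OS, E7, ADORA2A, UBE2V1, COL6A6, Neg, GFP and RFP. The labels do not say what the numbers 20 to 23 before 4 titles mean, what Neg and E7 stand for, or whether separate cultures lie behind libraries of the same label. A p-value below is thus set against library-to-library spread, part or all of which may be technical. Most labels among the 14 others stand on 1 library, so that spread also holds any difference between plasmids. Total estimated reads ran from 569057 in GFP to 4236396 in 20-ARSF, with 2252097 in the next shallowest library, and 3 reads correspond to 0.733 to 5.45 CPM (reads per 1000000 reads in genes). GFP stood apart, with a median rank correlation of 0.769 with the other libraries, where the 16 others had 0.857 to 0.890. The named target itself was barely counted, with 0.692 estimated reads of GOLGA8N summed over the libraries with its label and 1.32 summed over the 14 others. Activation of the named gene could therefore not be checked in its own counts, and the libraries are called by their labels only. All 10 erythroid and leukaemia markers of K562 averaged 10 CPM or more, while the lymphoid markers MS4A1, CD3E and CD2 were at 0 in every library, although the labels call the cells lymphoblasts. The 8 lymphoid markers summed to 59.7 to 120 CPM in the GOLGA8N libraries and 34.7 to 102 CPM in the others, nearly all of it CD3D, and the part of these reads in the results was not tested.

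COPII coats bud vesicles from the endoplasmic reticulum and COPI coats return proteins and membrane from the Golgi to it, with SAR1 starting the COPII coat and ARF GTPases the COPI coat. At the trans-Golgi, AP-1 with clathrin and ARF1 packs cargo for endosomes. Retromer and sorting nexins collect cargo on endosomes for return, the GARP complex tethers the arriving carriers, and RAB6 and SNAREs such as STX6 and VTI1A take part in their capture and fusion.

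Several coat genes carry the same short element in their promoters. In RefSeq promoter windows (GRCh38.p14, 250 bases before to 50 after the start), which were found for 41 of the 49 genes, the unfolded protein response element TGACGTGG stood on either strand in 7 genes, or 17.1%. It stood in 253 of 27305 genes of all kinds, or 0.927%, and in 1.05% of 15843 protein-coding genes. The element is known as a site for XBP1 and ATF6, transcription factors of the response to unfolded proteins, but a match is only a run of letters. The 8 matches are printed with 11 bases on each side, on the strand of the gene, with the element in capitals. Capitals read CCACGTCA where the element lies on the opposite strand.

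ARF1, chr1:228082681-228082710, plus strand: cccggaggcgcTGACGTGGccgccgtcaga
COPA, chr1:160343227-160343256, minus strand: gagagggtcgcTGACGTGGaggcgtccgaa
COPB1, chr11:14499841-14499870, minus strand: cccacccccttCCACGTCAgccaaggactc
COPB2, chr3:139389825-139389854, minus strand: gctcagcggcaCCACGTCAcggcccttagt
COPB2, chr3:139389632-139389661, minus strand: tcccggaagttCCACGTCAgtcagtctgac
SEC23A, chr14:39103221-39103250, minus strand: tcccctcctctTGACGTGGcagaggcggcg
SEC24A, chr5:134648595-134648624, plus strand: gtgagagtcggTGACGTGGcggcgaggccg
STX5, chr11:62832049-62832078, minus strand: ttacgtgtaggTGACGTGGccgcttccagt

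The longer ER stress response element, CCAAT, 9 bases of any kind and CCACG, which shares CCACG with the opposite strand of the shorter one, was in the windows of 0 of the 41 genes and in 0.0916% of all genes. The lysosomal E-box TCACGTGA was found for 1 of the 41 genes, STX6, or 2.44%, and in 1.18% of all genes. The common CCAAT box was found for 15 of the 41 genes, or 36.6%, and in 39.7% of all genes. The 7 genes with TGACGTGG did not move together with the GOLGA8N label: 4 of the 7 had a log2 fold change above 0, the median was 0.06, the range ran from -0.22 for STX5 to 0.16 for SEC24A, and the smallest unadjusted edgeR p was 0.499.

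**Figure D1:**
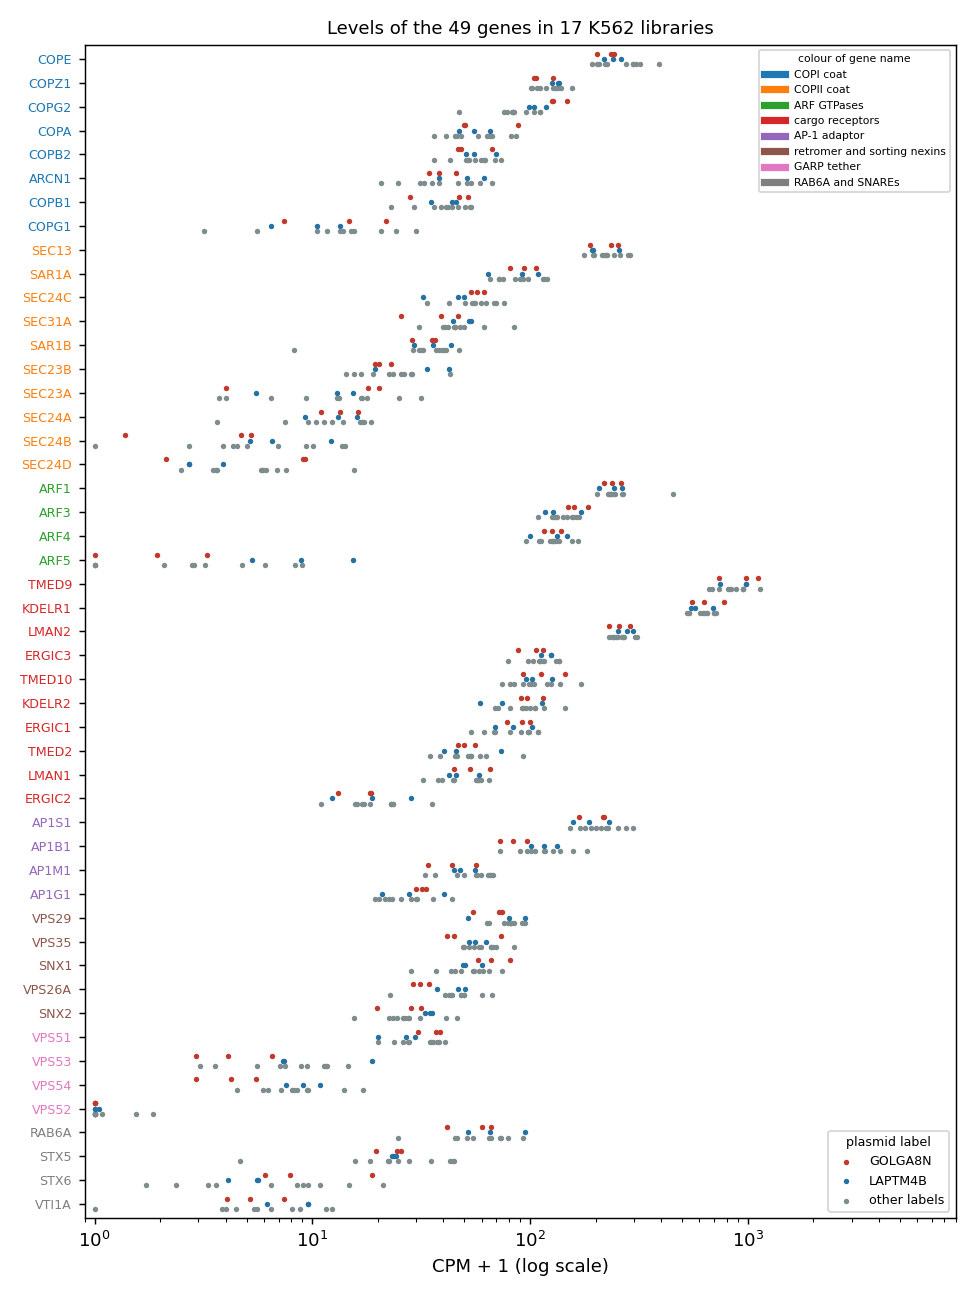
Level of each of the 49 genes in each of the 17 libraries, as CPM + 1 on a log axis, 1 row a gene, with gene names coloured by class and points coloured by plasmid label. TMED9 and KDELR1 stand highest, ARF5 and VPS52 lowest, and only for COPG2 do the 3 GOLGA8N points all lie beyond the 14 others.

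The summed level of the machinery with the GOLGA8N label lay within the range seen without it. The 49 genes together held 4846 CPM in 23-GOLGA8N, 4805 in GOLGA8N 1 and 4805 in GOLGA8N 2, against a lowest of 4385 (TRPC5OS), a median of 4797 and a highest of 5341 CPM (E7) in the 14 others. The GOLGA8N libraries lay inside the range of the others, with means of 4818 ± 23.6 (SD, n = 3) and 4801 ± 248 CPM (SD, n = 14). By class, the COPI coat summed to 679 ± 66.3 CPM in the GOLGA8N libraries and 683 ± 65.9 in the others, and the COPII coat to 496 ± 62.2 CPM in the GOLGA8N libraries and 508 ± 43.9 in the others. The cargo receptors, the largest class by reads, summed to 2383 ± 91.4 CPM in the GOLGA8N libraries and 2269 ± 170 in the others, and the ARF GTPases to 529 ± 35.6 CPM in the GOLGA8N libraries and 525 ± 68.2 in the others. The remaining classes, like the COPI and COPII coats, had the lower means in the GOLGA8N libraries. AP-1 was at 357 ± 39.4 CPM against 407 ± 53.1, and retromer and its nexins at 242 ± 9.99 against 263 ± 27.1. GARP was at 41.0 ± 2.69 against 45.5 ± 6.77, and RAB6A with the SNAREs at 91.4 ± 9.52 against 100 ± 28.4. All 8 class sums overlapped between the GOLGA8N libraries and the others, and these sums were not tested. In such bulk libraries, fewer cells expressing a gene and less RNA per cell cannot be told apart.

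**Figure D2:**
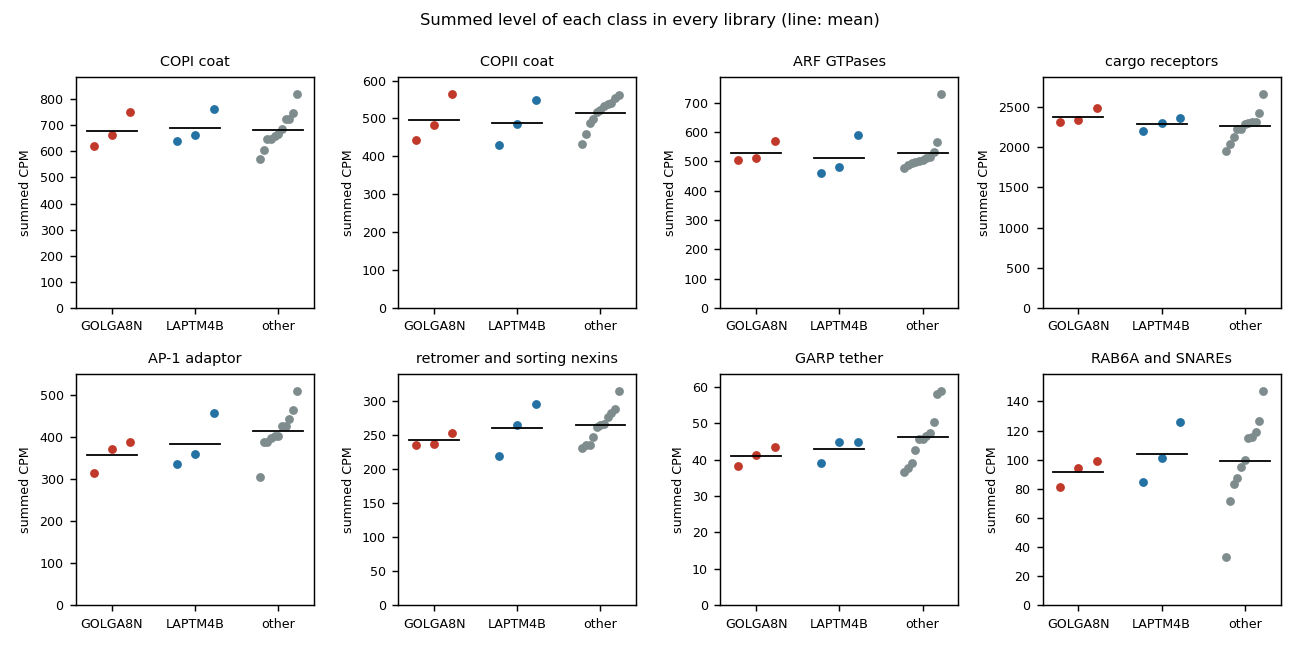
Summed CPM of each of the 8 classes in every library, by plasmid label, with lines at the means. The GOLGA8N points lie within the span of the other libraries in every class but COPII, where 23-GOLGA8N at 564 CPM is just above 20-ARSF at 561 CPM, and the low point of RAB6A with the SNAREs, at 32.7 CPM, is GFP.

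Gene by gene, no gene of the set was called with the GOLGA8N label. edgeR's quasi-likelihood test, with Benjamini-Hochberg adjustment over 13133 genes, called 4 genes (0.0305% of those tested) at an adjusted p under 0.05 and 0 of the 48 set genes tested, VPS52 being too low to test. At an unadjusted p under 0.05 there were 4 of the 48, where 3.8% of all genes tested passed: 1 higher, COPG2 (1.13% of all genes), and 3 lower, VPS26A, AP1B1 and VPS54 (2.67% of all genes). DESeq2 had 5 of the 49 at an unadjusted p under 0.05 (2.79% of the 26725 genes it tested) and limma-voom 2 (3.94% of 13133), and both called 0. DESeq2 was run with no filter on low counts. Its share thus also covers low genes that the filter for edgeR left out, and is not like the other shares. Fold changes were above 0 for 22 of the 48 and below 0 for 26, where 47% of all genes were above 0, and the median log2 was -0.04 beside -0.02 over all genes. For 37 of the 48 the 95% interval of the fold change lay within 2-fold in either direction. The other 11 were COPG1, SEC23A, SEC24A, SEC24B, SEC24D, ARF5, VPS26A, VPS53, VPS54, STX6 and VTI1A, whose intervals reached a 2-fold difference or beyond. In a test on simulated counts for this comparison, over 12325 genes, edgeR recovered 8 of 50 genes changed 2-fold and 37 of 50 changed 4-fold. Most simulated differences of 2-fold were thus missed by this design. The changed genes were drawn at random from genes of all levels and were only raised, so these rates are not those of the set.

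**Figure D3:**
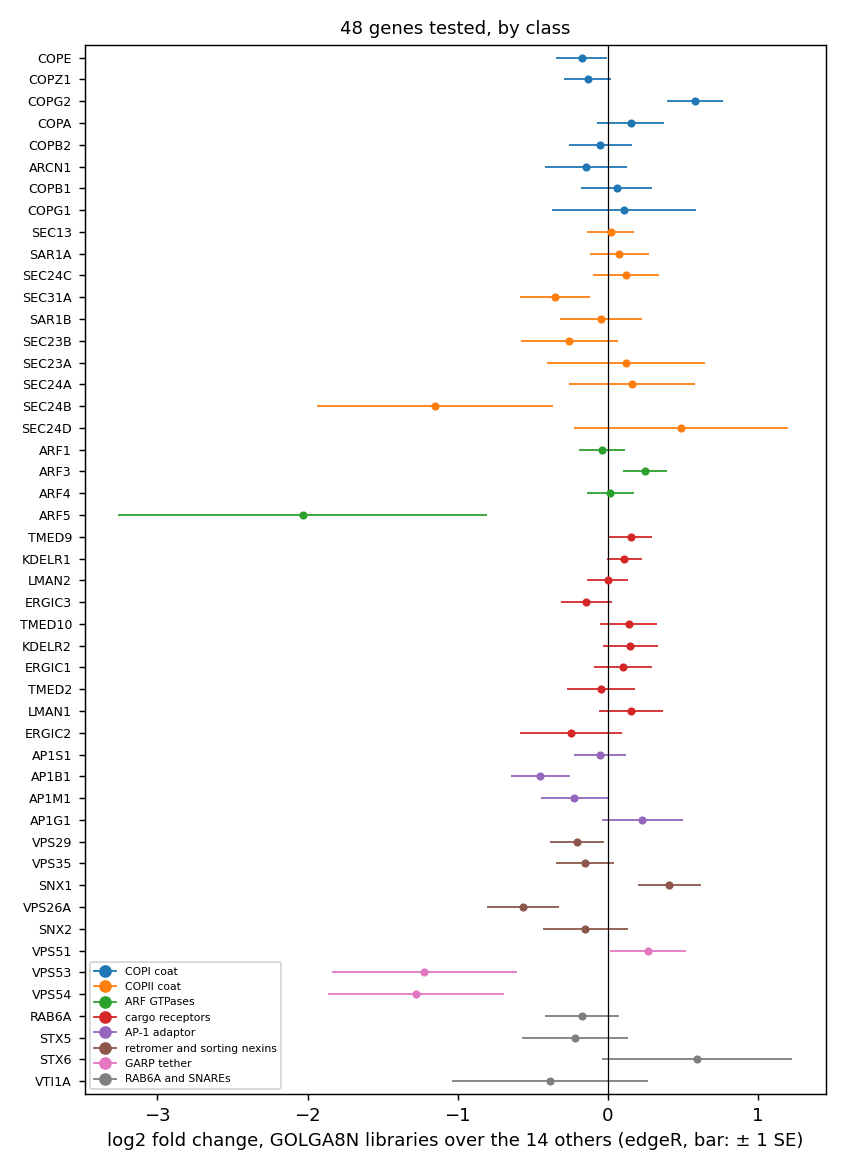
log2 fold change of 48 genes between the GOLGA8N libraries and the 14 others, with bars of 1 SE from edgeR, grouped and coloured by class. Most estimates lie within 0.3 of 0, COPG2 lies at 0.58, and the widest bars belong to the low genes ARF5, SEC24B, SEC24D, VTI1A and STX6.

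In the COPI coat, COPG2 had the lowest p of the set. COPG2 (ENSG00000158623, GRCh38 chromosome 7, 130506238 to 130668748, minus strand) encodes the γ2 subunit of coatomer, which binds cargo tails and ARF1 regulators. It was at 147 CPM in 23-GOLGA8N, 125 in GOLGA8N 1 and 127 in GOLGA8N 2, against a lowest of 46.1 (TTR), a median of 88.8 and a highest of 117 CPM (22-LAPTM4B) in the 14 others. All 3 GOLGA8N libraries were above every other library, which held for 0.107% of all genes tested. The difference was log2 0.58 ± 0.185 (SE, 95% interval 0.20 to 0.95; edgeR unadjusted p = 0.0035, adjusted p = 1), and it did not pass the threshold over all genes. Among the prefixed libraries, 23-GOLGA8N was at 147 CPM and the other 3 at 94.4 to 117. Among the unprefixed ones, GOLGA8N 1 and 2 were at 125 and 127 CPM and the other 11 at 46.1 to 110. This order follows from the lack of overlap over all libraries, so the split by prefix is no separate test. Across the alternatives the log2 value ran from 0.49 to 0.73, and the smallest adjusted p, by edgeR with no filter on low counts, was 0.177.

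By reads, COPG2 was also the higher of the 2 RNAs for the coatomer γ subunit, and protein was not measured. Of the reads of COPG1 and COPG2 together, a median of 88.7% fell on COPG2, from 76.6% in TTR to 97.7% in 21-CTPS2, and COPG2 was the higher of the 2 in 17 of 17 libraries by CPM and by deposited TPM. The share was 91.0% ± 3.78 in the GOLGA8N libraries (SD, n = 3) and 87.5% ± 6.57 in the others (SD, n = 14), and the ranges overlapped. Of its reads, 100% lay on 1 protein-coding transcript, whose end lies inside MEST on the opposite strand, a gene at 2.90 CPM here. The sources do not say whether the counting used strand.

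The other 7 COPI genes did not pass even the unadjusted threshold. COPE, the ε subunit, had the highest level of the coat, with 235 CPM in 23-GOLGA8N, 202 in GOLGA8N 1 and 243 in GOLGA8N 2, against a lowest of 192 (21-CTPS2), a median of 251 and a highest of 389 CPM (GFP) in the others. Its groups overlapped, at log2 -0.17 ± 0.171 (SE). ARCN1, the δ subunit, varied most in the coat among the genes of 20 CPM or more, with 44.6, 37.0 and 33.2 CPM in the GOLGA8N libraries, against a lowest of 19.7 (COL6A6), a median of 41.4 and a highest of 65.9 CPM (RFP) in the others. It stood at log2 -0.14 ± 0.274 (SE). COPA, COPB1, COPB2, COPG1 and COPZ1 had log2 values of 0.15, 0.06, -0.05, 0.11 and -0.13. The end of COPB2 lies inside MRPS22 on the opposite strand, a gene at 99.5 CPM on average, and whether the counting used strand is not known.

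Of the COPII coat, 6 of 10 genes had a log2 above 0 and 4 below, none at an unadjusted p under 0.05, with a class median of 0.05. SEC13, a shared subunit of the outer coat and of the nuclear pore, was the highest, with 253, 188 and 233 CPM in 23-GOLGA8N, GOLGA8N 1 and GOLGA8N 2, against a lowest of 176 (TTR), a median of 220 and a highest of 287 CPM (E7) in the others. Its log2 of 0.02 ± 0.156 (SE) turned below 0 in several alternatives. SEC31A, the other outer coat subunit, had 45.5, 24.6 and 38.0 CPM in the GOLGA8N libraries, against a lowest of 29.8 (21-CTPS2), a median of 44.2 and a highest of 83.6 CPM (GFP) in the others. GOLGA8N 1 was the lowest of all 17 and the groups overlapped, at log2 -0.36 ± 0.233 (SE, edgeR unadjusted p = 0.135), and at -0.15 ± 0.268 (SE) without GOLGA8N 1.

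The inner coat and its GTPase come as pairs of close relatives. SEC23B held a median of 65.2% of the reads of SEC23A and SEC23B and was the higher in 14 of 17 libraries by CPM but in 9 by deposited TPM, so their order depends on the scale. SEC23B itself was at 22.1, 19.3 and 18.3 CPM in 23-GOLGA8N, GOLGA8N 1 and GOLGA8N 2, against a lowest of 13.3 (UBE2V1), a median of 23.4 and a highest of 41.8 CPM (GFP) in the others, at log2 -0.26 ± 0.323 (SE). Among the cargo-binding subunits, SEC24C averaged 53.6 CPM, and SEC24D had a median of 7.70% of the reads of that pair and SEC24B 31.5% of its pair with SEC24A. SEC24B had 3.70, 0.379 and 4.20 CPM in the GOLGA8N libraries, against a lowest of 0 (GFP), a median of 4.87 and a highest of 13.1 CPM (Neg) in the others. These are close to the level of 3 reads, and the log2 of -1.15 ± 0.784 (SE) did not pass (edgeR unadjusted p = 0.15). Without GOLGA8N 1 it was -0.64 ± 0.852, and on log2 of deposited TPM + 1 it was -0.24 ± 0.178 (SE). SAR1A, the GTPase that starts the coat, was at log2 0.08 and SAR1B at -0.05.

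None of the 4 ARF GTPases had an unadjusted p under 0.05. ARF1, which recruits COPI and AP-1, was at 238, 217 and 261 CPM in 23-GOLGA8N, GOLGA8N 1 and GOLGA8N 2, against a lowest of 201 (TTR), a median of 238 and a highest of 455 CPM (GFP) in the others. GFP was far above the 16 other libraries, which lay between 201 and 266 CPM, and the log2 was -0.04 ± 0.152 (SE) with GFP and 0.03 without it. ARF3 had 158, 149 and 183 CPM in the GOLGA8N libraries, against a lowest of 108 (E7), a median of 136 and a highest of 171 CPM (LAPTM4B 2) in the others. GOLGA8N 2 was the highest of all, the groups overlapped, and log2 was 0.25 ± 0.149 (SE, edgeR unadjusted p = 0.106). ARF4 was at log2 0.02 ± 0.157 (SE).

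ARF5 (chromosome 7, 127588345 to 127591705, plus strand) was at 2.28, 0.929 and 0 CPM in 23-GOLGA8N, GOLGA8N 1 and GOLGA8N 2, against a lowest of 0 (Neg, GFP and UBE2V1), a median of 2.99 and a highest of 14.4 CPM (22-LAPTM4B) in the others. The GOLGA8N libraries lay at the low end, at log2 -2.03 ± 1.23 (SE, edgeR unadjusted p = 0.106), on 205 estimated reads in all 17 libraries. The last 297 bases of ARF5 (chromosome 7, 127591409 to 127591705) are also covered by ENST00000478328.1, a non-coding processed transcript of 705 bases of FSCN3, the neighbour on the same strand. That transcript took 37675 reads, 100% of the reads of FSCN3, while the protein-coding transcripts of FSCN3 had 0. FSCN3 was at 797 ± 171 CPM in the GOLGA8N libraries (SD, n = 3) and 724 ± 91.6 in the others (SD, n = 14), at log2 0.16 ± 0.138 (SE). With the FSCN3 reads added to ARF5, an alternative chosen after seeing the data, the log2 of the sum was 0.16. With 37675 reads of FSCN3 beside 205 of ARF5, the sum had to follow FSCN3 and is no estimate of ARF5. Reads of the 2 genes cannot be told apart at this end, so the level of ARF5 is uncertain.

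The cargo receptors were the most abundant class. TMED9, a p24 family protein of COPI and COPII vesicles, was at 983, 1117 and 735 CPM in 23-GOLGA8N, GOLGA8N 1 and GOLGA8N 2, against a lowest of 662 (TRPC5OS), a median of 861 and a highest of 1140 CPM (E7) in the others. The groups overlapped, at log2 0.15 ± 0.143 (SE, 95% interval -0.14 to 0.44), and the estimate was 0 without GOLGA8N 1. KDELR1, which returns escaped proteins of the endoplasmic reticulum, averaged 626 CPM and was at log2 0.11 ± 0.119 (SE, 95% interval -0.13 to 0.35), with KDELR2 at a median of 12.8% of the reads of the pair. LMAN2, a lectin of glycoprotein export, averaged 262 CPM and was at log2 0.00 ± 0.136 (SE). Of the 10 receptors 6 were above 0 and 4 below, from -0.24 for ERGIC2 to 0.15 for LMAN1, and the class median was 0.11. None had an unadjusted p under 0.05.

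In the AP-1 adaptor, AP1B1 was the gene with the lowest p. It encodes the β1 subunit, which binds clathrin and cargo. AP1B1 reached 82.8 CPM in 23-GOLGA8N, 95.6 in GOLGA8N 1 and 71.4 in GOLGA8N 2, against a lowest of 72.2 (TRPC5OS), a median of 115 and a highest of 182 CPM (GFP) in the others. GOLGA8N 2 was the lowest of all 17 libraries and the groups overlapped, at log2 -0.45 ± 0.197 (SE, edgeR unadjusted p = 0.0276, adjusted p = 1), and at -0.41 without GFP. All of its reads, 100%, were assigned to ENST00000482818.1, a retained-intron transcript that ends 2 bases from a protein-coding end, and reads from 3′ ends so close cannot be told apart. AP1S1, the σ1 subunit, was the highest of the class, with 166, 217 and 214 CPM in the GOLGA8N libraries, against a lowest of 151 (GFP), a median of 205 and a highest of 296 CPM (ADORA2A) in the others, at log2 -0.05 ± 0.172 (SE). AP1M1 was at log2 -0.23 and AP1G1 at 0.23.

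**Figure D4:**
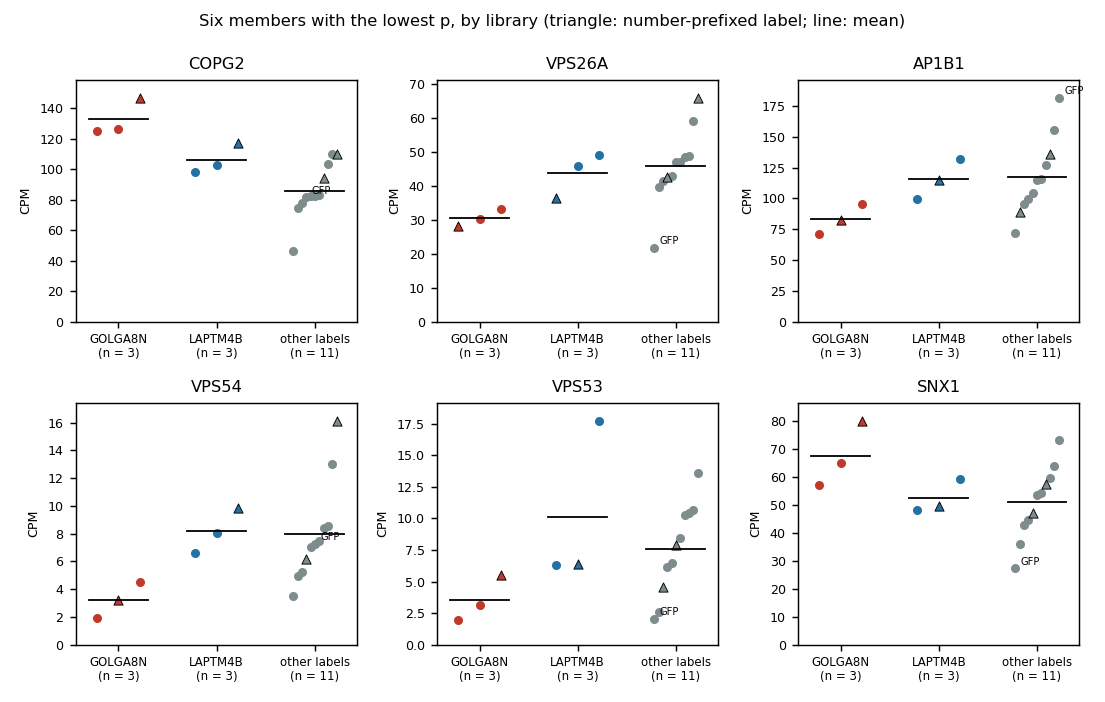
CPM in each library of COPG2, VPS26A, AP1B1, VPS54, VPS53 and SNX1, by plasmid label, with triangles for labels with a number prefix and lines at the means. COPG2 is highest in the 3 GOLGA8N libraries, and for VPS26A the GOLGA8N libraries and the others overlap through GFP.

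Retromer's VPS26A was low in the GOLGA8N libraries and in GFP. VPS26A, a subunit of the cargo-recognition core, had 28.1 CPM in 23-GOLGA8N, 33.3 in GOLGA8N 1 and 30.3 in GOLGA8N 2, against a lowest of 21.8 (GFP), a median of 46.4 and a highest of 66.0 CPM (20-ARSF) in the others. The groups overlapped through GFP, the shallowest library. Without GFP the others began at 36.4 CPM in 22-LAPTM4B, above all 3 GOLGA8N libraries. Leaving out the 1 library that overlaps sets the groups apart by choice. How many of all genes are apart without GFP was not counted, so this is no result about VPS26A. The difference was log2 -0.56 ± 0.240 (SE, edgeR unadjusted p = 0.0245, adjusted p = 1), and -0.61 without GFP (edgeR unadjusted p = 0.00613, adjusted p = 0.999). Set against Neg, GFP and RFP only, it was -0.30 ± 0.379 (SE).

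The partners of VPS26A had smaller estimates. VPS35, the scaffold of the core, was at log2 -0.15 ± 0.196 (SE, 95% interval -0.55 to 0.24), with 59.6% of its reads on a transcript annotated for nonsense-mediated decay that ends 3545 bases from the nearest coding end. VPS29, the other subunit of the core, was at 53.8, 70.7 and 73.7 CPM in 23-GOLGA8N, GOLGA8N 1 and GOLGA8N 2, against a lowest of 50.6 (22-LAPTM4B), a median of 79.9 and a highest of 94.0 CPM (21-CTPS2) in the others. Its groups overlapped, at log2 -0.21 ± 0.182 (SE). SNX1, a membrane-bending sorting nexin, had its estimate above 0, with 80.0, 65.0 and 56.9 CPM in the GOLGA8N libraries, against a lowest of 27.3 (GFP), a median of 51.4 and a highest of 73.1 CPM (TTR) in the others. Only 23-GOLGA8N was above every other library, and log2 was 0.41 ± 0.210 (SE, edgeR unadjusted p = 0.0599). SNX2, its close relative, was at -0.15 ± 0.284 (SE).

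The GARP tether was little expressed by these counts. VPS51, the highest, was at 29.4, 35.9 and 37.4 CPM in 23-GOLGA8N, GOLGA8N 1 and GOLGA8N 2, against a lowest of 18.9 (Neg), a median of 27.8 and a highest of 39.6 CPM (21-CTPS2) in the others, at log2 0.27 ± 0.252 (SE). The end of VPS51 lies inside TM7SF2, a gene on the same strand at 24.0 CPM on average. Of the VPS51 reads, 53.3% lay on a processed transcript, and how reads were divided between the genes was not tested. VPS54 had 3.22, 4.53 and 1.91 CPM in the GOLGA8N libraries, against a lowest of 3.52 (TTR), a median of 7.37 and a highest of 16.1 CPM (20-ARSF) in the others. VPS53 had 5.53, 3.11 and 1.93 CPM in the GOLGA8N libraries, against a lowest of 2.04 (GFP), a median of 7.21 and a highest of 17.8 CPM (LAPTM4B 1) in the others. GOLGA8N 2 was the lowest of all 17 libraries for both and the groups overlapped, VPS54 at log2 -1.28 ± 0.584 (SE, edgeR unadjusted p = 0.0352, adjusted p = 1) and VPS53 at -1.22 ± 0.615 (SE, edgeR unadjusted p = 0.0545, adjusted p = 1). They rest on 373 and 394 reads in all 17 libraries, and on log2 of deposited TPM + 1 VPS54 was at -0.17 ± 0.250 and VPS53 at -0.36 ± 0.333 (SE). VPS52 had 4.60 reads in all. Its locus overlaps RPS18, at 4290 CPM on the opposite strand, but the 3′ end of VPS52 lies outside RPS18.

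Of the trafficking GTPase and SNAREs, none had an unadjusted p under 0.05. RAB6A, the GTPase of retrograde carriers, was at 59.2, 40.4 and 64.9 CPM in 23-GOLGA8N, GOLGA8N 1 and GOLGA8N 2, against a lowest of 23.6 (GFP), a median of 64.4 and a highest of 93.4 CPM (22-LAPTM4B) in the others. The groups overlapped, at log2 -0.17 ± 0.248 (SE). STX5, the Golgi syntaxin, varied most among all members of 20 CPM or more (SD of log2(CPM + 1) over the 16 libraries other than GFP), with 23.5, 18.5 and 24.5 CPM in the GOLGA8N libraries, against a lowest of 3.64 (GFP), a median of 23.0 and a highest of 43.8 CPM (COL6A6) in the others. It stood at log2 -0.22 ± 0.356 (SE), with STX6 at 0.59 ± 0.633 and VTI1A at -0.38 ± 0.652 (SE), both under 10 CPM on average.

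Other genes of the same pathways, a list of 87 that includes further adaptors, ARF regulators, golgin-tether partners and SNAREs, also held no called gene. Of 83 tested, edgeR called 0 higher and 0 lower, where 0.0305% of all genes were called. In this list 38 had a log2 above 0, where 47% of all genes did, and the median was -0.04. At an unadjusted edgeR p under 0.05, 1 was higher (1.13% of all genes) and 1 lower (2.67% of all genes). MIA3, which loads large cargo such as collagen into COPII carriers, was at 4.73, 6.80 and 14.1 CPM in 23-GOLGA8N, GOLGA8N 1 and GOLGA8N 2, against 1.82 to 23.2 CPM in the others, at log2 -0.93 ± 0.437 (SE, edgeR unadjusted p = 0.0408, adjusted p = 1). ARFGAP3, an ARF1 GTPase-activating protein of COPI, had 18.4, 13.98 and 4.58 CPM in the same libraries, against 0.575 to 13.4 CPM in the others, at log2 1.24 ± 0.604 (SE, edgeR unadjusted p = 0.0476, adjusted p = 1). Both overlapped between the groups. AP1G2, an AP-1 γ subunit, was at log2 -0.91 ± 0.484 and COG2, of the COG tether, at -1.19 ± 0.651 (SE).

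Against the 3 LAPTM4B libraries, the only other label with replicates, again no gene of the set was called. These 3 are among the 14 others, so the comparison shares its libraries with the one above. edgeR called 1 gene (0.00761% of 13133) and 0 of 48 in the set, 2 of which, ARF5 and VPS53, were lower at an unadjusted p under 0.05, where 1.62% of all genes were. Both rest on few reads, with ARF5 at 0 to 2.28 CPM and VPS53 at 1.93 to 5.53 CPM in the GOLGA8N libraries. The level of ARF5 is uncertain because of its overlap with FSCN3, here and in the list that follows. The groups did not overlap for 10 of the set, where 8.41% of all genes did not: COPG2, SEC24C, VPS51 and STX6 were higher (3.89% of all genes), and ARF5, AP1B1, VPS26A, SNX2, VPS53 and VPS54 lower (4.52% of all genes) in the GOLGA8N libraries. COPG2 averaged 133 ± 12.3 CPM in the GOLGA8N libraries and 106 ± 9.89 in the LAPTM4B libraries (SD, n = 3 each), at log2 0.32 ± 0.240 (SE, edgeR adjusted p = 1). AP1B1 averaged 83.3 ± 12.1 CPM in the GOLGA8N libraries and 116 ± 15.9 in the LAPTM4B libraries, at log2 -0.47 ± 0.249 (SE, edgeR adjusted p = 1). VPS26A averaged 30.5 ± 2.61 CPM in the GOLGA8N libraries and 43.8 ± 6.60 in the LAPTM4B libraries, at log2 -0.52 ± 0.301 (SE, edgeR adjusted p = 1). SEC24C averaged 56.3 ± 3.95 CPM in the GOLGA8N libraries and 41.8 ± 9.20 in the LAPTM4B libraries, at log2 0.43 ± 0.280 (SE), with an edgeR adjusted p of 1. The median log2 over the set was -0.02, beside -0.03 over all genes.

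The 4 libraries with a number before the label (20-ARSF, 21-CTPS2, 22-LAPTM4B and 23-GOLGA8N) were compared with the 13 without, with the GOLGA8N label as a term. edgeR called 25 of 12319 genes (0.203%) and 0 of the 48 set genes tested. In the set 31 of 48, or 64.6%, had a log2 above 0, where 47.6% of all genes did, and the median was 0.06 beside -0.02 over all genes. RAB6A was the 1 member higher at an unadjusted p under 0.05, where 4.31% of all genes were. It had 91.8 CPM in 21-CTPS2, 93.4 in 22-LAPTM4B, 64.1 in 20-ARSF and 59.2 in 23-GOLGA8N, against a lowest of 23.6 (GFP), a median of 53.5 and a highest of 78.1 CPM (TTR) in the unprefixed libraries. It overlapped, at log2 0.48 ± 0.197 (SE, edgeR unadjusted p = 0.0212, adjusted p = 0.434). The COPI coat summed to 725 ± 46.1 CPM in the prefixed libraries (SD, n = 4) and 670 ± 64.3 in the unprefixed ones (SD, n = 13), with 6 of its 8 genes above 0 and a median of 0.20. No member's groups were apart, where 0.357% of all genes' were. Whether the prefix marks a batch is not stated, and 1 of the 3 GOLGA8N libraries carries it.

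Levels within the set spanned a wide range. Averaged over the 17 libraries, 13 members were at 100 CPM or more, 28 at 10 to 100 and 8 under 10, these being SEC24B, SEC24D, ARF5, VPS52, VPS53, VPS54, STX6 and VTI1A. TMED9 had the highest mean, 881 CPM, followed by KDELR1 at 626 CPM. CPM counts transcript ends, while deposited TPM divides by the length of the assigned transcript, which changes the order for a few genes. COPE averaged 255 CPM and 903 TPM, since 97.8% of its reads were assigned to ENST00000600528.1, a processed transcript of 261 bases, and TMED9 averaged 226 TPM. For 23 of the 48 members with enough reads, 90% or more lay on 1 transcript, and in 5 (COPE, SEC23A, AP1B1, VPS35 and VPS51) the leading transcript was not protein-coding. In 47 of the 48, VPS35 being the exception, the leading transcript ended within 50 bases of a protein-coding end.

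Between the 16 libraries other than GFP, the chi-square per degree of freedom against counting error had a median of 7.73 over 48 members. Over the 13133 genes tested it was 7.64. This measure also depends on the number of reads of a gene. Members and other genes were not matched for level, so near medians do not show an equal spread. The spread between libraries holds any difference between plasmids and any repeated molecules as well as counting error. ARF1 varied least on the fold scale among those 16, by 1.32-fold between TTR and 20-ARSF, followed by LMAN2 at 1.35-fold. COPG1, at 13 CPM on average, varied by 13.3-fold between 21-CTPS2 and E7.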

How the data were processed

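RNA was measured in 17 libraries. Per the file headers, the authors deposited estimated counts (expected counts) and TPM per transcript in the layout of Salmon. Per the submitters' processing notes, the tools were featureCounts, UMI-tools, Salmon 0.7.2 and STAR with the same version number, which leaves STAR's in doubt, and the builds GRCh38 and hg38. No source read here states a strand setting or whether molecular identifiers were collapsed, so floors of 3 reads cover counting error only.

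The deposited counts were summed per gene with GENCODE 29, matching transcripts by identifier without version; 3.32% to 3.6% of reads had no gene and stayed out. CPM were computed from these sums. Rounded sums were tested with edgeR 4.0.16 (TMM, filterByExpr, robust quasi-likelihood fit), in R 4.3.3, at an adjusted p of 0.05 over all genes, with DESeq2 1.42.0 and limma 3.58.1 as alternatives. The code was tested on simulated counts. SE is the size of the log2 fold change divided by the square root of F. The members, the further pathway list and the classes were chosen with earlier results of these data known. Values per library are given for the 10 members with the lowest p, the highest of each class and the 3 most variable members averaging 20 CPM or more. Alternatives were another scaling, other filters, other tools, deposited TPM, the prefix or replicate number as a term, subsets of libraries and leaving out each library.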

Additional observations from a re-analysis of the deposited data

How the results depend on the processing

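No member was called in any of the 27, 15 and 10 alternatives run for the GOLGA8N libraries against the 14 others, against LAPTM4B, and for prefixed against unprefixed labels. The number of all genes called in the first comparison was 4, against 231 with no filter on low counts (where the median log2 of all genes was -0.21), 7 with DESeq2, 1 without GFP, 2 against Neg, GFP and RFP only, 2 with the replicate block, and 2 to 5 without each other library in turn, the lowest without GOLGA8N 1 or GOLGA8N 2. Against LAPTM4B it was 1, against 5 with no filter, 0 with the stricter filter, 2 with DESeq2, 0 with limma-voom, 2 with the prefix as a term, and 0 to 2 without each library, 0 without GOLGA8N 1 and 2 without GOLGA8N 2. On the libraries titled 1 and 2 it was 2 with the replicate block and also 2 with no block. The labels do not say that these numbers mark anything shared, and the differences between the 2 numbers correlated at r = 0.106 between the labels, across 13133 genes that are not independent replicates. For the prefix it was 25, against 106 with no filter, 116 with DESeq2, 55 with limma-voom, and 2 to 17 without each library, 2 without 22-LAPTM4B, 6 without 21-CTPS2 and 7 without 23-GOLGA8N.

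COPG2 kept a log2 above 0 and VPS26A, AP1B1, VPS54 and VPS53 below 0 in every alternative run. They are the members with the lowest p and the alternatives share libraries, so a kept sign is no separate support. COPE, ARCN1, SEC23B, SEC24B, SEC31A, ARF3, SNX1, VPS29 and VPS51 kept their signs as well. No member whose sign changed was called. SEC13, at 0.02, was at -0.004 without GFP, -0.01 with the prefix as a term, -0.022 among unprefixed libraries, -0.044 on deposited TPM, and -0.069 to 0.122 without each library. ARF1, at -0.04, was at 0.005 with limma-voom, 0.026 without GFP and -0.103 to 0.015 without each library. AP1S1, at -0.05, was at 0.040 among unprefixed libraries, 0.054 against Neg, GFP and RFP only, and -0.135 to 0.066 without each library. Against Neg, GFP and RFP only, RAB6A was at 0.104 and STX5 at 0.189, where all 14 others gave -0.17 and -0.22. Leaving out GOLGA8N 1 moved STX5 to -0.116 and RAB6A to -0.002, leaving out GOLGA8N 2 moved ARF3, at 0.25, to 0.164 and ARCN1, at -0.14, to -0.047, and leaving out 23-GOLGA8N moved VPS29, at -0.21, to -0.074 and ARF5, at -2.03, to -3.319; none of these was called. The cause of these changes was not tested. With the reads of FSCN3 added to ARF5, an alternative chosen after seeing the data, the sum was at 0.158. FSCN3, with nearly all of the reads, fixed that value, so it is no estimate of ARF5.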
